A study of Homo sapiens with 6 samples.

Results

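Carbonic anhydrases were measured as 10 genes (CA1, CA2, CA3, CA4, CA5B, CA8, CA9, CA11, CA12 and CA13) among 18656 genes on 6 arrays of AGS, an established human gastric adenocarcinoma cell line. They were chosen by name, without a threshold on any value, but with signals and inhibitor minus control differences of these same arrays already known. Each gene was read by the probe sets that the platform annotation assigns to that symbol alone. This gave 106 of 257430 probe sets, and every one of the 10 genes had at least 8. Averaging the log2 signals of its probe sets gave each gene 1 value per array, and dim genes were kept, so no gene of the list was lost.

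The 3 arrays of the miR-25-3p inhibitor group came from AGS cells transfected with an anti-miR oligonucleotide against miR-25-3p, and the 3 arrays of the control RNA group came from AGS cells transfected with a non-targeting RNA. Both groups received Oligofectamine and a repeat transfection after 24 h, were harvested 48 h after the first, and supplied 500 ng of total RNA per array. Cells of both groups grew in DMEM (F12/HAM) with serum and glutamine, and the labels call the samples biological replicates. The line is a single tumour line, and the mature microRNA itself was not measured here, so the degree of inhibition is not known from these values.

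Carbonic anhydrases convert carbon dioxide and water into bicarbonate and a proton, and most of them do so at a zinc ion held by histidines. Isoforms differ in where they work: in the cytosol, in the mitochondrial matrix, or on the outer face of the plasma membrane, while the related proteins CA8, CA10 and CA11 have lost the zinc site and the activity. In the stomach, cytosolic CA2 supplies protons for acid secretion by parietal cells and bicarbonate for the mucous layer, and CA9 and CA12 are known from tumours, where hypoxia-inducible factors (HIF) induce CA9 strongly.

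The molecule that the inhibitor is directed against is shown with the other human microRNAs of the RefSeq table (build GRCh38.p14) that share its seed, bases 2 to 8, in capitals. They are shown because target recognition runs mainly through these 7 bases, which all 6 have in common.
hsa-miR-25-3p: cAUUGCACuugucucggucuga
hsa-miR-92a-3p: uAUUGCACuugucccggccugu
hsa-miR-92b-3p: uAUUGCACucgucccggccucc
hsa-miR-32-5p: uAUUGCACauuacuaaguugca
hsa-miR-363-3p: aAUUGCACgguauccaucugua
hsa-miR-367-3p: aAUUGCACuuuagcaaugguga
The mature miR-25-3p is encoded on the minus strand at chr7:100093571-100093592. Whether the messages of the carbonic anhydrases hold matches to this seed was not analysed here.

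The arrays were much alike. Column medians lay between 6.02 and 6.07, and 2 arrays of the same group correlated at 0.991 to 0.995 across genes, against 0.990 to 0.994 for arrays of different groups. Control replicate 1 stood furthest from the others, with a mean correlation of 0.9915. All 10 markers fixed for a gastric epithelial line (EPCAM, keratins, claudins, ELF3, LGALS4, TFF1 and MUC1) had gene values between 6.89 and 12.0, whereas the medians of the lists for other cell types were 3.63 for erythroid cells, 3.65 for endothelium, 4.27 for fibroblasts, 4.29 for parietal cells, 4.69 for leukocytes and 4.92 for skeletal muscle. In limma, 0 of 18656 genes passed an adjusted p of 0.05 in either direction (0% called), and 1141 had an unadjusted p under that value, with 2.95% of all genes higher and 3.16% lower.

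Among the 10 genes, 4 gave signals above both levels set from silent genes: cytosolic CA13 and CA2, mitochondrial CA5B and the inactive CA11. Silent genes were represented by 348 olfactory receptor genes, whose 95th percentile of gene values was 4.29, 99th percentile 4.93 and highest value 5.58. These 348 genes had 476 probe sets in all, against at least 8 for each of the 10 carbonic anhydrases, so the compared gene values average unlike numbers of probe sets. Means over the 6 arrays were 7.60 for CA13, 6.9997 for CA5B, 6.72 for CA11 and 5.53 for CA2, the last just below the highest olfactory receptor. CA9 (4.92), CA4 (4.79) and CA3 (4.74) lay between the levels, so 7 of 10 genes exceeded the lower one, as did 13233 of all 18656 genes (70.9%), a similar share. CA9 lay at the border of the upper level, with 4.924 against 4.926. CA12, at 4.27, lay just below the lower level of 4.29. CA8 (2.82) and CA1 (2.58) lay far below, near the median of 2.67 for olfactory receptors. Probes differ in brightness, so the order of these signals is not an order of messenger RNA abundance.

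The level of silent genes is a low bar. Of 41 measured markers of parietal, erythroid, muscle, blood, connective tissue and endothelial cells, 19 also exceeded 4.29, and their 75th and 95th percentiles were 5.04 and 7.02. CA3, CA4 and CA9 lay below the 75th percentile, while CA13, CA5B, CA11 and CA2 lay above it, and CA13 also exceeded the 95th percentile. LYZ, the lysozyme gene, which was listed for leukocytes, was the highest of the 41 at 8.82, so the listed markers were not all dim in this line. Whether LYZ is particular to leukocytes was not tested.

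**Figure D1:**
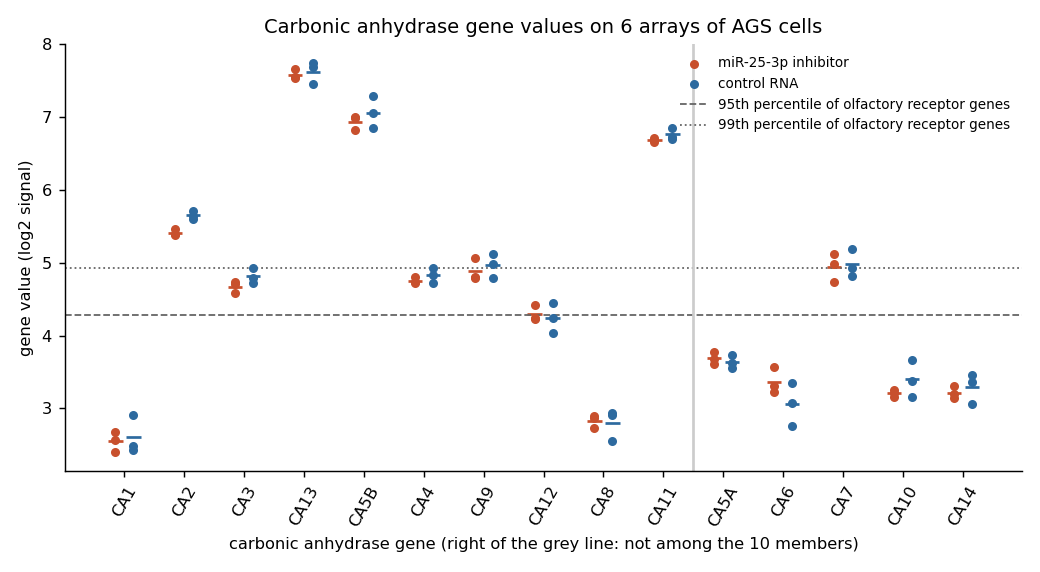
Gene values (log2 signal, vertical axis) of the 10 carbonic anhydrases and, right of the grey line, of 5 further carbonic anhydrases, with 1 point per array and a bar at the mean of each group of 3 arrays (miR-25-3p inhibitor left, control RNA right). Dashed and dotted lines mark the 95th (4.29) and 99th (4.93) percentiles of olfactory receptor genes. Among the 10, CA13, CA5B, CA11 and CA2 lie above both, and the groups are separate for CA2. Right of the grey line, CA7 also lies above both by its mean of 4.96.

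Single probe sets gave the same division for most genes. The 95th percentile of the 476 olfactory receptor probe sets was 4.67. For CA13, 10 of 10 probe sets had means above it, from 5.38 to 9.23, and for CA11 10 of 10, from 5.98 to 7.96. CA5B had 9 of 10 and CA2 9 of 12, with the remaining probe sets of CA2 at 1.15, 1.42 and 4.34.

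The membrane isoforms were mixed. CA9 had 8 of 12 probe sets above the level, with a highest mean of 6.88, and CA4 had 6 of 11, with a highest of 7.31. CA12 had 6 of 14, and its brightest probe set (8.02) stood well above the next (6.11). CA3 had 3 of 8, with a brightest of 7.05. For CA1 and CA8 the count was 0 of 10 and 0 of 9. A gene mean over such unlike probe sets can hide a transcript read by only some of them, and transcript structure was not available for these probe sets.

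**Figure D2:**
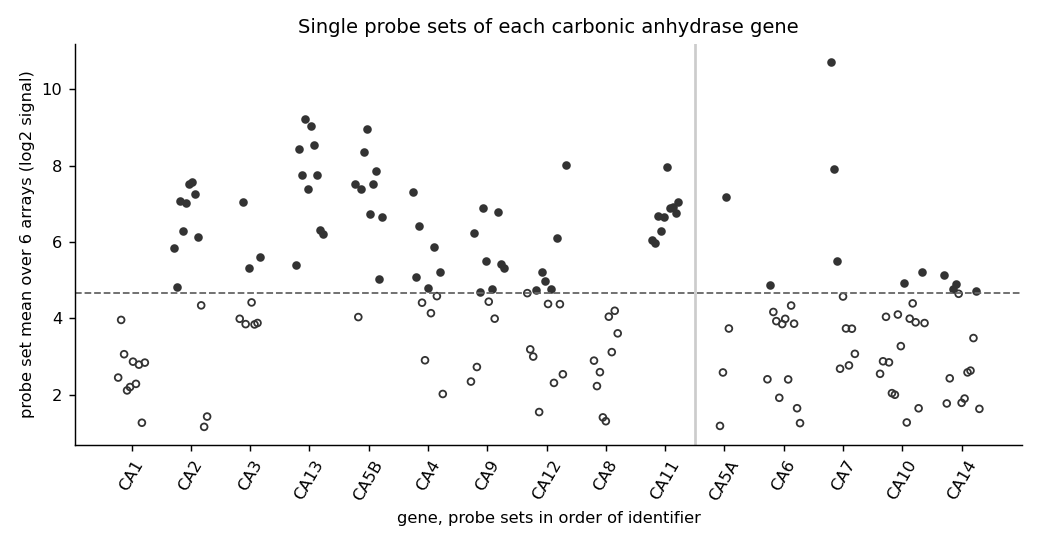
Mean log2 signal over the 6 arrays (vertical axis) of every probe set of each carbonic anhydrase gene, in order of identifier, filled where it exceeds the 95th percentile of olfactory receptor probe sets (4.67, dashed line). All probe sets of CA13 and CA11 are filled, none of CA1 or CA8 is, and CA12 and CA7 have 1 or 2 bright probe sets above a dim majority.

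The comparison of the inhibitor group with the control group asked whether the carbonic anhydrases differ when cells receive the miR-25-3p inhibitor. The values of the 10 genes are a description without a test, since the list was drawn up with these results known. Each difference is the inhibitor mean minus the control mean in log2 units, with the standard error (SE) that limma moderates across all genes. CA2 was the 1 gene of the 10 whose groups of arrays did not overlap, a pattern that 12.9% of all genes showed in either direction and 7.68% with the inhibitor arrays below. The opposite order, with the inhibitor arrays above, was seen for 0 of the 10 and for 5.20% of all genes. Of the 10 differences, 8 were negative and 2 positive, with a median of -0.074, against a median of 0.0021 and 49.5% negative over all genes. Of the 106 single probe sets of these genes, 60 had a negative difference, against 49.8% of all probe sets.

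Among the cytosolic enzymes, CA2 had gene values of 5.38, 5.46 and 5.39 in inhibitor arrays, against 5.60, 5.65 and 5.71 in control arrays. All inhibitor arrays therefore lay below all control arrays, by a small margin. The means were 5.41 ± 0.044 in inhibitor and 5.65 ± 0.055 in control arrays (SD, n = 3 each), a difference of -0.24 (SE 0.085) or 0.846-fold. Of its 12 probe sets, 11 had a negative difference, and the 12th was at 0.010. The largest differences were -0.63 and -0.61, and the second of these was on a probe set with a mean of 1.42, in the range of silent genes. With the 9 probe sets above the level of silent ones the difference was -0.23, and with the median of all 12 probe sets it was -0.13. Leaving out any 1 array gave -0.27 to -0.21, and could not turn the sign because the groups do not overlap. In RNA from a whole culture, fewer expressing cells and less RNA per cell cannot be told apart. Markers of parietal cells, where CA2 serves acid secretion, had list means of 4.19 to 4.34 in inhibitor and 4.21 to 4.44 in control arrays. Over the 6 arrays, the proton pump subunits ATP4A and ATP4B averaged 4.44 and 4.29, at or just above the level of silent genes. Of the other measured markers of this list, KCNQ1 averaged 5.69, above CA2, and ESRRG (3.88) and KCNE2 (3.17) lay below that level. The difference was 0.21 for ATP4A and negative for the other 4, with -0.21 for ATP4B.

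CA13, a widely expressed cytosolic isoform, had gene values of 7.54, 7.54 and 7.66 in inhibitor arrays, against 7.45, 7.74 and 7.68 in control arrays. The lowest and the highest of the 6 were both control arrays. The means of 7.58 ± 0.070 in inhibitor and 7.62 ± 0.15 in control arrays (SD, n = 3 each) differed by -0.042 (SE 0.10), less than the spread of the control arrays, and by 0.015 without control replicate 2.

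CA3, a low-activity isoform abundant in skeletal muscle and fat, had 4.705, 4.58 and 4.73 in inhibitor arrays, against 4.79, 4.93 and 4.72 in control arrays. Inhibitor replicate 3 lay above control replicate 3, so the groups overlapped. The difference was -0.14 (SE 0.096), with 4 of 8 probe sets negative, and it was -0.45 with the median of the probe sets and 0.30 with only the 3 probe sets above the level of silent ones. CA1, the abundant isoform of red cells and colon epithelium, had 2.41, 2.57 and 2.68 in inhibitor arrays, against 2.91, 2.425 and 2.48 in control arrays. These signals stayed at the level of silent genes in every array, and the difference was -0.056 (SE 0.14), smaller than its SE.

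In the RefSeq gene order, CA13, CA1, CA3 and CA2 follow each other as neighbouring protein-coding genes. Signals along this cluster were high for CA13 (7.60), at the level of silent genes for CA1 (2.58), low for CA3 (4.74) and intermediate for CA2 (5.53), in means over the 6 arrays.

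CA5B, which supplies bicarbonate in the mitochondrial matrix, had gene values of 6.998, 6.83 and 6.99 in inhibitor arrays, against 6.84, 7.29 and 7.06 in control arrays. The groups overlapped through control replicate 1. The means of 6.94 ± 0.096 in inhibitor and 7.06 ± 0.22 in control arrays (SD, n = 3 each) differed by -0.12 (SE 0.12), with 8 of 10 probe sets negative. It was -0.23 without control replicate 1, -0.012 without control replicate 2 and 0.023 with the median of the probe sets.

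CA5BP1, a transcribed pseudogene related to CA5B, is not one of the 10 genes and is named here after its values were seen. RefSeq also lists a readthrough gene, CA5BP1-CA5B, so reads of the pseudogene and of CA5B may not be fully separate on these probe sets. CA5BP1 had 5.41, 5.485 and 5.95 in inhibitor arrays, against 6.42, 6.185 and 6.185 in control arrays. In its gene values the inhibitor arrays lay wholly below the control arrays, as for 7.68% of all genes. The same held on both of its 2 probe sets, for which no share of all probe sets was computed. The difference was -0.65 (SE 0.15), with an adjusted p of 0.788 in limma.

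Of the enzymes on the cell surface, CA9 had gene values of 4.80, 5.06 and 4.79 in inhibitor arrays, against 4.99, 5.11 and 4.795 in control arrays. The groups overlapped, and in both of them 1 array lay above 5. The means of 4.88 ± 0.15 in inhibitor and 4.97 ± 0.16 in control arrays (SD, n = 3 each) differed by -0.083 (SE 0.12). The brightest 2 probe sets of CA9 went opposite ways. One had 6.81, 6.47 and 6.30 in inhibitor arrays, against 7.33, 7.31 and 7.04 in control arrays, a difference of -0.70. The other had 7.17, 7.24 and 6.77 in inhibitor arrays, against 6.59, 6.73 and 6.26 in control arrays, a difference of 0.53. Neither overlapped between groups, a pattern that 12.9% of all genes showed in either direction and that was not counted over all probe sets. The small difference of the gene averages over discordant probe sets. With the median of the probe sets it was 0.090.

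CA12, a transmembrane isoform, had gene values of 4.42, 4.23 and 4.24 in inhibitor arrays, against 4.24, 4.45 and 4.03 in control arrays. The control arrays spanned the whole range of the inhibitor arrays. The difference of 0.062 (SE 0.12) turned to -0.042 without control replicate 3, was 0.13 on the brightest probe set and was 0.33 with the median of the probe sets. CA4, which a lipid anchor holds to the membrane, had 4.73, 4.73 and 4.81 in inhibitor arrays, against 4.93, 4.72 and 4.83 in control arrays. Its groups overlapped, with a difference of -0.072 (SE 0.091), which was -0.15 with the median of the probe sets and 0.020 on the brightest.

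The inactive CA11, a secreted carbonic anhydrase-related protein, had gene values of 6.68, 6.66 and 6.71 in inhibitor arrays, against 6.73, 6.85 and 6.70 in control arrays. Control replicate 3 lay within the inhibitor range. The means of 6.68 ± 0.025 in inhibitor and 6.76 ± 0.081 in control arrays (SD, n = 3 each) differed by -0.076 (SE 0.087), with 5 of 10 probe sets negative. It was -0.25 with the median of the probe sets and 0.14 on the brightest. CA8, which binds an inositol trisphosphate receptor in neurons, had 2.86, 2.90 and 2.73 in inhibitor arrays, against 2.91, 2.56 and 2.94 in control arrays. These values lay at the level of silent genes, and the difference was 0.030 (SE 0.12).

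**Figure D3:**
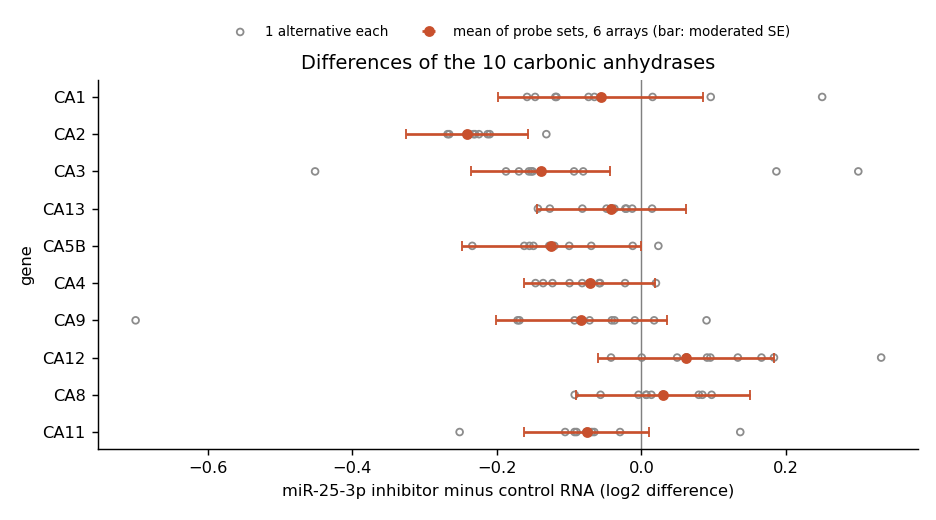
Inhibitor minus control difference (log2, horizontal axis) of each of the 10 carbonic anhydrases, with the moderated SE as a bar and 1 open circle for each alternative way of computing it. CA2, at -0.24, is negative under every alternative shown, from -0.27 to -0.13, while each of the other 9 genes has at least 1 circle on the other side of 0. Leaving out 1 array could not turn the sign of CA2, because its groups do not overlap. The replicate block and median centring left the difference of every gene shown unchanged.

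The 5 carbonic anhydrases outside the list were mostly dim. CA5A (3.66), CA10 (3.31), CA14 (3.25) and CA6 (3.21) had means below the level of silent genes. CA7, a cytosolic isoform best known from brain, reached 4.96, just above the 99th percentile of olfactory receptor genes (4.93). It did so through 3 of 9 probe sets with means of 10.7, 7.90 and 5.50. Their differences were -0.034 for CA7, 0.057 for CA5A, -0.076 for CA14, -0.19 for CA10 and 0.30 for CA6, the secreted isoform of saliva. The groups overlapped for all 5. The smallest adjusted p among them in limma was 0.788, for CA6, which had 1 of 12 probe sets above the level of silent ones.

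CA9 is a textbook HIF target, and its promoter is shown for the HIF-binding core next to the start of the gene. The 30 bases before the annotated start (chr9:35673898-35673927, plus strand, GRCh38.p14, RefSeq) hold TACGTG on the opposite strand, in capitals as it reads on the plus strand.
CA9: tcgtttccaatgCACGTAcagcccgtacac
Promoter sequences were matched for 3 of the 10 genes. Within 250 bases before the start, TACGTG, searched on both strands, was found for CA9 and not for CA12 or CA5B, and 2.76% of 35116 promoters hold it. The shorter core ACGTG, which TACGTG contains, was also found for CA9 and not for CA12 or CA5B, and 18.5% of promoters hold it. A match is a description of these letters and not a measured binding site.

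Genes of the HIF pathway were mostly detected in AGS cells. Of 26 listed factors, regulators and targets, 24 exceeded the level of silent genes (92.3%, against 70.9% of all genes), with a median of 7.83, against 5.77 over all genes, and HIF1A, the oxygen-regulated subunit, averaged 10.79 ± 0.058 in inhibitor and 10.71 ± 0.099 in control arrays (SD, n = 3 each). In limma, 0 of the 26 genes passed the threshold in either direction, against 0% of all genes. Differences were positive for 11 and negative for 15, with a median of -0.054. The inhibitor arrays lay wholly below the control arrays for 5 of the 26 (EPAS1, ARNT, BNIP3L, SLC2A1 and MXI1, against 7.68% of all genes) and wholly above them for 0 (against 5.20%). The glucose transporter SLC2A1 had 10.68, 10.72 and 10.72 in inhibitor arrays, against 10.94, 10.89 and 10.95 in control arrays. The MYC antagonist MXI1 had 6.91, 6.84 and 7.13 in inhibitor arrays, against 7.27, 7.32 and 7.28 in control arrays. The inhibitor arrays lay wholly below the control arrays for both genes. Differences were -0.22 (SE 0.081) and -0.33 (SE 0.10), with adjusted p = 0.788 in limma for both. NDRG1 had the largest difference of the list, -0.56 (SE 0.22), negative on 18 of 18 probe sets, but its groups overlapped. On the positive side were the prolyl hydroxylase EGLN1 at 0.090 (SE 0.087) and the collagen cross-linking enzyme LOX at 0.18 (SE 0.13), the latter dim at 2.95.

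Transporters that carry the products of carbonic anhydrases showed no call either. Of 16 genes listed as bicarbonate transporters, 9 exceeded the level of silent genes (56.3%, against 70.9% of all genes). In limma, 0 passed in either direction, with 6 positive and 10 negative differences and a median of -0.046. Whether each of the 16 carries bicarbonate was not tested. SLC4A4, a sodium bicarbonate cotransporter, had 5.18, 5.21 and 5.18 in inhibitor arrays, against 4.90, 5.03 and 4.96 in control arrays, a difference of 0.22 (SE 0.084). SLC26A6, an anion exchanger, had 6.50, 6.47 and 6.67 in inhibitor arrays, against 6.74, 6.78 and 6.77 in control arrays, a difference of -0.21 (SE 0.090). SLC4A11, a transporter of the same family as SLC4A4, differed by -0.22 (SE 0.091), and the anion exchanger SLC4A3 by 0.16 (SE 0.094). The groups did not overlap for SLC4A4, SLC26A6 and SLC4A11, which was 1 gene above and 2 below out of 16, against 12.9% of all genes in either direction. All 4 named genes had adjusted p = 0.788 in limma.

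Of 17 proton and lactate transporters and partners, 14 were measured, 8 exceeded the level of silent genes (57.1%, against 70.9% of all genes) and 0 passed in limma in either direction, with 7 positive and 7 negative differences and a median of -0.016. The lactate transporter SLC16A1 had 9.26, 8.48 and 8.22 in inhibitor arrays, against 8.19, 8.34 and 8.50 in control arrays. Inhibitor replicate 1 lay above the other arrays, and the difference was 0.31 (SE 0.24). The proton channel HVCN1 differed by 0.11 (SE 0.088), the transporter chaperone EMB by -0.24 (SE 0.088) at a dim mean of 3.50, and the sodium proton exchanger SLC9A2 by -0.18 (SE 0.096). None of these 4 genes passed the threshold, with adjusted p from 0.788 to 0.830 in limma. Over the list, the inhibitor arrays lay wholly above the control arrays for 1 of 14 genes (SLC9A8, against 5.20% of all genes). They lay wholly below for 2 (EMB and the lactate transporter SLC16A3, against 7.68%).

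**Figure D4:**
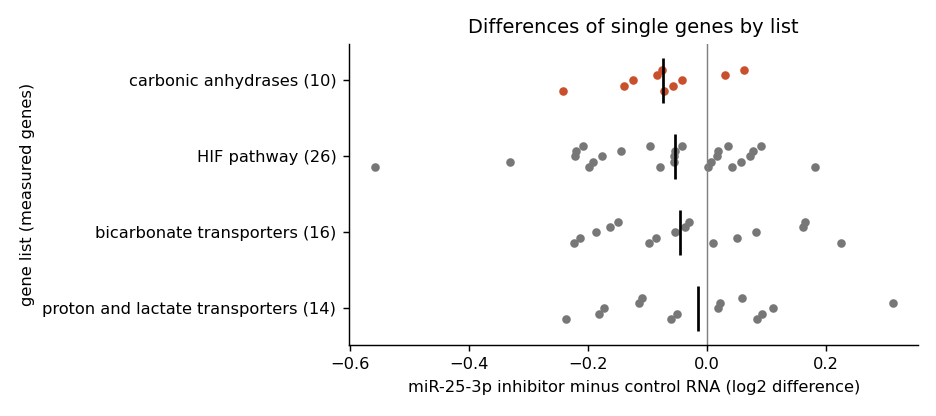
Inhibitor minus control differences (log2, horizontal axis) of single genes, 1 point per gene, for the 10 carbonic anhydrases and for 3 lists of partner genes, with a vertical bar at each median. Medians lie between -0.074 and -0.016, the lists overlap widely, and no gene of the 3 partner lists passed the threshold of limma's adjusted p.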

How the data were processed

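The deposited table holds log2 signals of 257430 probe sets on 6 arrays (Affymetrix Human Gene 1.0 ST). Per the submitters' processing notes, the authors used RMA in Affymetrix software (Expression Console; Transcriptome Analysis Console), and versions and settings are not given in the sources used here. Because RMA equalises the distributions of arrays, a shift of most genes together would be lost. No scanner file or scan date was used here, and precision is limited by the number of arrays.

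From these values, gene values were means over probe sets naming 1 gene (224320; several genes were named for 10159 and none for 22951), with 2533 old symbols updated through RefSeq. The groups were compared with limma 3.58.1 (lmFit, eBayes, R 4.3.3) without a block, with Benjamini-Hochberg adjustment over 18656 genes and a threshold of 0.05. The fit was tested on simulated data. The members and lists were chosen with earlier results of these data known. Named genes were all 10 members, the other carbonic anhydrases, and the 2 genes of each other partner list with the smallest p on each side of 0. HIF1A, ATP4A, ATP4B, KCNQ1, ESRRG, KCNE2, LYZ, CA5BP1, EPAS1, ARNT, BNIP3L, NDRG1, SLC9A8 and SLC16A3 were added after their values were seen. Alternatives were the replicate block, leaving out arrays, other summaries of probe sets, other scalings, filters and levels of silent genes.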

Additional observations from a re-analysis of the deposited data

How the results depend on the processing

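Limma called 0 genes in either direction, and 0 partner genes, under the alternatives run, with the following exceptions. Leaving out 1 array gave 0 to 1 higher genes, the 1 without control replicate 3, and an unadjusted p under 0.05 gave 551 higher, 590 lower and 7 partner genes. The replicate block gave 0 calls and changed no call, and same-numbered arrays had correlations of deviations of -0.032, -0.040 and 0.17, so arrays were treated as unpaired. The count of 7 carbonic anhydrases above the level of silent genes became 4 with the 99th percentile of olfactory receptor genes, and 4 and 1 with the 75th and 95th percentiles of markers of other cell types, both chosen after seeing the data, because the bar was higher. It was 7 to 8 leaving out arrays and 8 with the median of probe sets or the 90th percentile, CA12 lying at the border. The 118 recomputed differences of the 10 genes include the replicate block and median centring, which left each difference unchanged. Of the 118, 15 changed sign, in 9 genes, and 11 moved by more than the spread between replicates. All 11 came from another choice of probe sets. The cause was not tested.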
